A study of Mus musculus with 16 samples.

Results

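Among CD8+ T cells from mouse lung, 126 of 2322 cells (5.43%, 95% interval 4.54 to 6.43%) held a count of at least 2 of 6 genes: Bcl2, Trib3, Asns, Atf5, Slc7a5 and Lta. These 126 cells are called the members below, and the other 2196 lung cells are the comparison. The 6 genes chose the members, so their own levels describe the choice and are not a result. Pmel T cells recognise gp100, a melanoma antigen, through a transgenic T cell receptor, carry the marker Thy1.1, and are described by the series as CD8+Thy1.1+. They were taken from lung, liver, skin and draining lymph node of C57BL/6 mice aged 16 weeks with melanoma-associated vitiligo (loss of pigment cells after melanoma), 45 days after tumor surgery. Lung tissue was minced, digested with Liberase and DNase and passed over Percoll. The 16 samples are 4 per tissue and differ within a tissue only in an ending in the form of a flow cell lane, so each tissue was taken as 1 library. No source used here says whether animals were pooled, and no group of untreated or tumor-free mice was analysed here.

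The amino acid response is a branch of the integrated stress response. When uncharged tRNA builds up, the kinase GCN2 phosphorylates the initiation factor eIF2alpha, most translation slows, and the messenger RNA of the transcription factor ATF4 is translated better. ATF4, with C/EBP partners, drives genes for amino acid synthesis, amino acid uptake and tRNA charging, and its targets also include the kinase-like inhibitor Trib3 and the death-promoting factor Ddit3 (CHOP). Bcl2 is a mitochondrial survival protein that long-lived memory T cells depend on.

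Of the rule genes, Asns makes asparagine, Trib3 is a feedback inhibitor of ATF4 and AKT, Atf5 is a stress transcription factor related to ATF4, Slc7a5 is the light chain of the large neutral amino acid transporter LAT1, and Lta encodes the cytokine lymphotoxin alpha. In GENCODE M21 on GRCm38 their genes lie at chr1:106538178-106714274 for Bcl2, chr2:152337422-152344032 for Trib3, chr6:7675169-7693254 for Asns, chr7:44812256-44816658 for Atf5, chr8:121881150-121907694 for Slc7a5 and chr17:35203165-35205351 for Lta, each a protein-coding gene on the minus strand.

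RefSeq promoters (GRCm38.p6, 250 bases before to 50 after each start site) were searched on both strands for TGATGNAA, the core letters of the composite site that ATF4 binds with a C/EBP partner. Of all 32851 promoters, 1304 (3.97%) held it, as did 196 of 9045 promoters (2.17%) of genes in the table. Of the rule genes with a promoter in the tables (5 of 6), Asns and Trib3 held it, while Bcl2, Atf5 and Lta did not. Among tRNA synthetases and their cofactors, 5 of 15 matched genes held it, and among the listed ATF4 targets 5 of 25. Matched genes higher in the members by the naming rule given below had it in 1 of 11 cases (Gadd45g), and those lower in 0 of 13. The windows below are shown because their genes belong to the program that chose the members or to the tRNA synthetases described later. Capitals mark the match as read along the gene's strand, where a match on the opposite strand reads TTNCATCA. Start sites are RefSeq's, and they differ from the GENCODE gene ends given above, so the Asns match lies inside the GENCODE gene and the Trib3 match lies before the GENCODE start.
Asns (chr6:7693210-7693272, minus strand, match 23 bases before the start site): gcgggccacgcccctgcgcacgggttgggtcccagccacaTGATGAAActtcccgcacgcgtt
Trib3 (chr2:152344031-152344054, minus strand, match after the start site): gctcaggtTTACATCAgccgggcg
Gars (chr6:55037931-55038000, plus strand, match 30 bases before the start site): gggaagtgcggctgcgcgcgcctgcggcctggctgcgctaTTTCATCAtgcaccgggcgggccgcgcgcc
Tars (chr15:11399659-11399713, minus strand, match 15 bases before the start site): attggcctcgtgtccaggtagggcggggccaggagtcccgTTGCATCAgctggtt
Yars (chr4:129189903-129189921, plus strand, match after the start site): agcTGATGCAAcccgacgg
Aars (chr8:111033690-111033777, plus strand, match 112 bases before the start site): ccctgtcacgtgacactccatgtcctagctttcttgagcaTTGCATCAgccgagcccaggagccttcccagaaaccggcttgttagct
Aars (chr8:111033843-111033866, plus strand, match after the start site): gggtcactTTTCATCAgagcgctc
Iars (chr13:49682130-49682152, plus strand, match after the start site): gtcagtaTTGCATCAcctccaga
A match describes letters only, and no binding was measured here.

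Of the 126 members, 92 held a count of exactly 2 rule genes and 34 of 3 or more. Just outside the threshold, 353 lung cells held 1 rule gene, and 1843 held none. Bcl2 was counted in 100 members, Slc7a5 in 54, Trib3 and Atf5 in 37 each, Lta in 34 and Asns in 32. The commonest combinations were Bcl2 with Slc7a5 (21 cells), Bcl2 with Atf5 (16), Bcl2 with Lta (15), Bcl2 with Trib3 (11) and Bcl2 with Asns (8). Levels were summed over cells and divided by their total counts, giving counts per 1000000 (CPM). Bcl2 stood at 561 CPM in the members and 25.6 CPM in the other lung cells, Slc7a5 at 193 and 5.82, and Trib3 at 137 and 2.59, as the rule dictates.

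The members were shallow cells. Their median was 1887.5 counts per cell (range 1271 to 10800) with 872 genes, against 2999.5 counts (1249 to 11088) with 1133 genes in the other lung cells. A rule that asks for counts finds its genes more easily in deep cells, yet 85 of the 126 members lay in the shallowest of 4 depth groups of lung cells (1249 to 2255 counts), where they made up 14.6% of 581 cells. They made up 2.92%, 1.21% and 2.93% of the next groups in order of depth. The mitochondrial share of counts was similar, with a median of 1.70% in the members and 1.87% in the others. Counts of ribosomal protein genes took a median of 32.0% in the members and 24.1% in the others, and the nuclear RNA Malat1 took 2.61% and 1.66%. These shares and the depth move with membership, and beyond the comparisons at equal depth given below their part in the results was not tested.

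**Figure D1:**
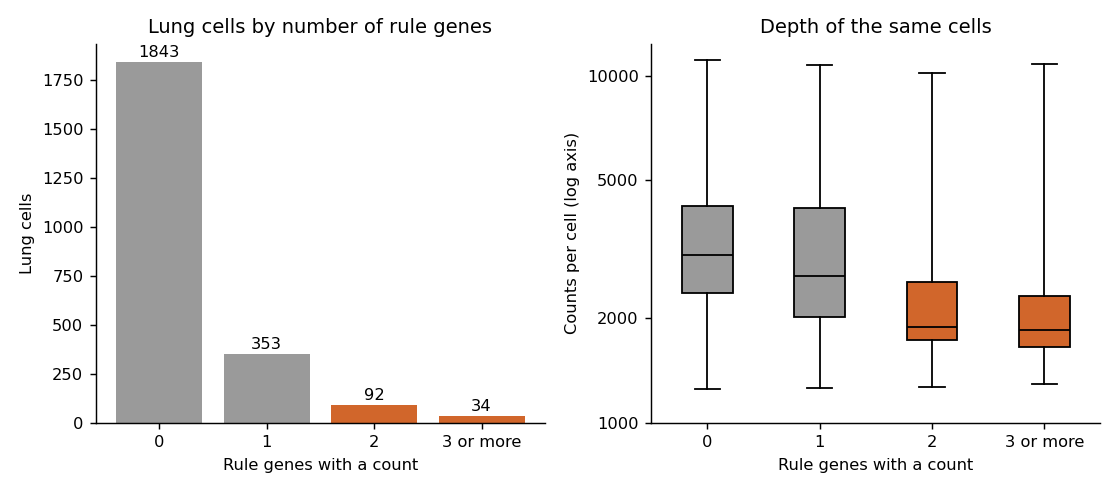
Number of lung cells (left) and counts per cell on a log axis (right) by the number of rule genes with a count, with members in orange. Boxes span the quartiles around the median and whiskers reach the lowest and highest cell, and the median falls from 3042 counts with 0 rule genes to 1854 with 3 or more.

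To describe how the rule genes occur together, each was left out in turn and cells were chosen by at least 2 of the other 5. The 6 genes were proposed as a group from earlier results of these cells, so their going together is part of the choice and supports nothing further. Trib3 then reached 90.1 CPM in 110 chosen cells and 5.02 CPM in the remaining lung cells, a ratio of 18.0 (95% interval 10.6 to 30.1). Slc7a5 gave 126 against 10.3 CPM (12.2, 7.69 to 18.8) and Bcl2 403 against 41.7 CPM (9.65, 7.14 to 12.8), the latter in 55 chosen cells. Atf5 gave a ratio of 7.75 (4.41 to 13.0), Asns 6.02 (3.34 to 10.3) and Lta 3.30 (1.70 to 5.88). Lta had the lowest of the 6 ratios and Trib3 the highest. When every cell was first thinned to 1500 counts the 6 ratios were between 5.12 and 19.6. Bcl2 was then counted in 59.3% of 27 chosen cells (38.8 to 77.6%) and 6.43% of the rest. All intervals here are exact and come from counting error only. Those of CPM ratios leave out the spread of counts between cells, and all leave out variation between animals, which 1 library per tissue cannot give. For the same reason no test between conditions was possible and none is reported.

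**Figure D2:**
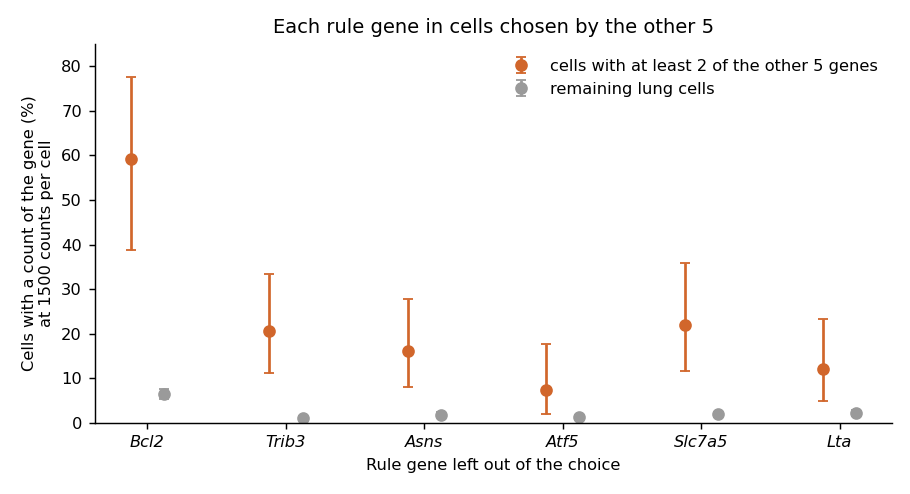
Percentage of lung cells with a count of each rule gene after thinning to 1500 counts per cell, in cells chosen by the other 5 genes (orange) and in the remaining lung cells (grey). Bars are exact 95% binomial intervals, and each orange point lies above its grey one, from Atf5 at 7.27% against 1.28% to Bcl2 at 59.3% against 6.43%.

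The members carried T cell transcripts throughout. Cd8a stood at 787 CPM in the members and 682 CPM in the others, Thy1 at 644 and 527, and the receptor chain Trac at 757 and 633. Cd3e (561 and 632 CPM) and Cd3g (1529 and 1628 CPM) were close on both sides. Cd3d, at 632 against 937 CPM, and Cd8b1, at 2250 against 2990 CPM, were lower in the members. All 15 T cell identity genes had counts in the members. Together they were lower there, at 17529 CPM against 21012 CPM (ratio 0.83, 0.81 to 0.86). Of the 15, 4 were higher and 11 lower in the members, 2 of them at least 1.5 times lower, with a median log2 ratio of -0.29. Among markers of other cells, myeloid genes summed to 145 CPM in the members and 168 in the others (8 genes in the table, 2 at 0 in the members), B cell genes to 11.9 and 25.2 (5 genes, 3 at 0), epithelial genes to 2.97 and 16.4 (2 genes, 1 at 0), and the endothelial gene in the table to 2.97 and 7.89. The NK and innate-like marker Klrk1, which CD8+ T cells also express, was at 855 against 1068 CPM and was counted in 74.6% of members. Il2ra, the only gene of the CD4 and regulatory T marker set in the table, was at 14.8 against 5.95 CPM (ratio 2.50, 0.77 to 6.26), with 5 counts in the members. Lyz2, a myeloid gene that T cells should lack, was counted in 9.52% of members and 9.24% of other cells, at 38.6 and 28.6 CPM. Where its counts come from was not tested. The delta receptor gene Trdc was counted in 4 of 126 members (13 counts) and 16 of 2196 other cells (44 counts). Both gamma-delta genes together summed to 44.5 against 15.8 CPM.

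Across all other genes, 2610 reached 50 CPM on either side. Of these, 423 (16.2%) were at least 1.5 times higher in the members and 257 (9.85%) at least 1.5 times lower. These shares are the background against which single genes are read. A gene could pass the 50 CPM minimum through the members alone, as Cars and Rcc2 did, and the split depends on that minimum. With at least 200 CPM on either side, 8.19% of 684 genes were higher and 10.1% lower by the same fold. By the naming rule, which takes genes counted in at least 10% of cells on their higher side and ranks them by how far the interval lies from equality, the 15 genes highest in the members were Hspa1a, Rcc2, Cars, Pim2, Cdk6, Cdkn1a, Inpp4b, Hspa9, Skil, Mthfd2, Gadd45g, Fam133b, Hist1h1c, Ddit3 and Snhg12. Genes at the other end were Sgk1, Ccl5, Isg15, Rasgrp2, Pycard, Fcgrt, Lcn4, S100a4, Rom1, Irf7, Gzmk, Ly6c2, Lsp1, Gzma and Mt1. Those outside the gene groups below included, on the high side, Rcc2, a chromosome-associated regulator of Rac1 and cell division (74.2 against 9.95 CPM), Inpp4b, a phosphoinositide phosphatase (ratio 5.04, 3.37 to 7.34), and Skil, an inhibitor of SMAD signaling (53.4 against 10.3 CPM). On the low side were Sgk1, a glucocorticoid-inducible kinase (62.3 against 243 CPM, ratio 0.26, 0.16 to 0.39), Pycard, the adaptor of inflammasomes (315 against 802 CPM, 0.39, 0.32 to 0.48), Lsp1, an actin-binding protein of leukocytes (775 against 1671 CPM, 0.46, 0.41 to 0.52), and the metallothionein Mt1 (56.4 against 159 CPM, 0.35, 0.21 to 0.56).

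**Figure D3:**
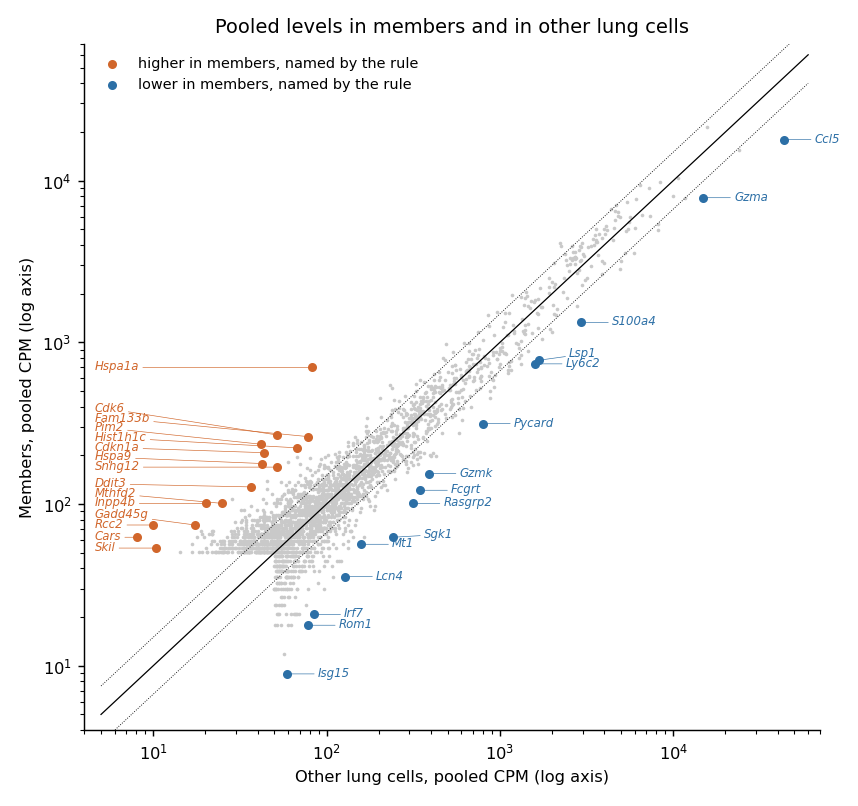
Pooled CPM in the 126 members against the other 2196 lung cells, log axes, for genes with 50 CPM or more on either side and without the rule genes. The solid line is equality and the dotted lines are a ratio of 1.5 either way; orange and blue mark the 15 named genes in each direction, from Cars at 62.3 against 8.02 CPM to Ccl5 at 17932 against 43581 CPM.

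Amino acid response genes outside the rule were higher in the members. Ddit3 was at 128 CPM in the members and 36.8 CPM in the others (ratio 3.46, 2.45 to 4.79). Mthfd2, a mitochondrial enzyme of one-carbon metabolism, was at 101 and 25.1 CPM (4.02, 2.71 to 5.82), and Shmt2, which feeds it from serine, at 56.4 and 16.7 (3.38, 1.97 to 5.50). Phgdh, the entry enzyme of serine synthesis, had a ratio of 1.97 (1.39 to 2.73), while Psph, the last enzyme of the same path, had 0.76 (0.42 to 1.26). The ATF4 partner Cebpg stood at 98.0 against 36.6 CPM (2.68, 1.81 to 3.85). Atf4 itself was at 276 against 171 CPM (1.61, 1.29 to 1.99), a smaller ratio than those of most targets just named. Slc3a2, the heavy chain that pairs with Slc7a5 in LAT1, was at 522 against 240 CPM (2.18, 1.86 to 2.55), and was counted in 67.5% of members and 52.4% of other cells. At 1500 counts per cell those shares were 48.7% and 30.0%.

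The list held 44 ATF4 targets outside the rule genes, of which 30 had a row in the counts. Chac1, Slc7a11 and Vldlr were among those without a row. A summed count of at least 20 was reached by 28 targets. Of these, 23 were higher and 5 lower in the members, with 20 at least 1.5 times higher and 0 at least 1.5 times lower. Among all 8694 genes with that many counts, 54% were higher, 22.8% were at least 1.5 times higher and 19.2% at least 1.5 times lower. The median log2 ratio was 0.83 over the 28 targets and 0.07 over all genes. The exceptions were Gadd45a, Psph, Eif2ak3, Eif4ebp1 and Atf3, each with an interval that included equality. Among the higher genes the interval also included equality for Psat1, Slc1a5 and Slc38a2. It did so too for Sesn2, Aldh18a1, Slc7a1, Got1 and Klhl24, which were among those at least 1.5 times higher.

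The tRNA synthetases and their scaffold factors, which load amino acids onto tRNA, followed the same pattern. Of 23 genes, 20 were higher in the members, 12 by at least 1.5 times and 0 at least 1.5 times lower, with a median log2 ratio of 0.79. Cars (cysteine) was at 62.3 against 8.02 CPM, a ratio of 7.78 (4.50 to 12.9), and Mars (methionine) at 65.3 against 21.7 (3.01, 1.84 to 4.70). Tars, whose promoter match is shown above, had 2.20 (1.11 to 3.99), Gars 2.05 (1.44 to 2.85) and Yars 1.96 (0.95 to 3.62). Kars was at 62.3 against 78.6 CPM (0.79, 0.49 to 1.22), and Vars and Aimp1 were also below equality. Intervals included equality for these lower genes and, among the higher ones, for Farsa, Farsb, Hars, Iars, Qars, Rars, Wars, Yars and Eef1e1. Xpot, the exportin that carries tRNA out of the nucleus, had a ratio of 4.86 (2.29 to 9.42).

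**Figure D4:**
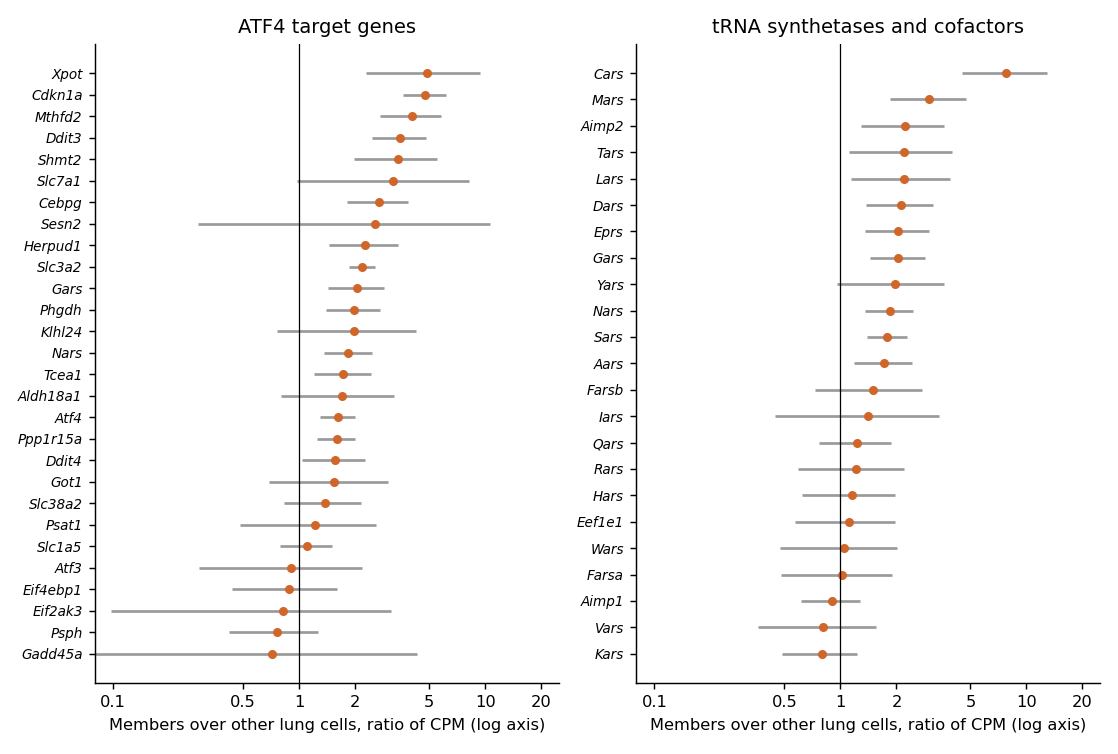
Ratio of CPM in members over other lung cells, log axis, for ATF4 target genes (left) and tRNA synthetases with cofactors (right) with a summed count of at least 20, without the rule genes. Points are ratios, bars are exact 95% intervals for counting error (clipped at the panel edge), and 23 of 28 and 20 of 23 points lie right of the line at 1.

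The unfolded protein response of the endoplasmic reticulum, another stress arm that shares some ATF4 targets, was level over the genes listed for it. Of these 22 genes, 10 were higher and 12 lower, with 1 past 1.5-fold in each direction and a median log2 ratio of -0.01. This depends on how the lists were drawn. Among the ATF4 targets, Ddit3, Herpud1 (2.26, 1.45 to 3.39) and Ppp1r15a (1.59, 1.25 to 1.99) were higher, while Atf3 (0.90, 0.29 to 2.17) was not. The chaperone Hspa5 (BiP) was at 338 CPM in the members and 344 CPM in the others, Xbp1 at 56.4 and 54.8, and Dnajb9 at 71.2 and 70.6. Of 12 heat shock genes, 9 were higher in the members, 6 by at least 1.5 times and 0 at least 1.5 times lower, with a median log2 ratio of 0.59. Hspa1a, an inducible HSP70, was at 701 against 82.6 CPM (8.48, 7.27 to 9.86), but it was counted in only 26 members and 5 cells held 46.6% of its member counts. Its near-identical copy Hspa1b (4.86, 2.29 to 9.42) may share reads with it, so the split between them is uncertain. Hsp90aa1 was at 804 against 473 CPM, Dnajb1 at 341 against 171 CPM and Hspa9, the mitochondrial HSP70, at 178 against 42.4 (4.20, 3.13 to 5.55), while the constitutive Hspa8 was at 1647 against 1734 CPM.

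Genes of ribosome biogenesis and MYC targets were higher, 17 of 19 with 13 at least 1.5 times and a median log2 ratio of 0.69. Nop56, a box C/D snoRNP protein, had a ratio of 2.04 (1.52 to 2.69), Nolc1 1.99 (1.09 to 3.38), Ncl (nucleolin) 1.61 (1.34 to 1.93) and Npm1 1.60 (1.42 to 1.78). Snhg12, a host gene of small nucleolar RNAs, was at 169 against 51.7 CPM (3.27, 2.43 to 4.33). Myc was sparse, with 4 counts in the members (2.09, 0.54 to 5.73). Oxidative phosphorylation (38 genes, median log2 ratio -0.01) and proteasome genes (32 genes, 0.02) were level. Of 28 proliferation genes 14 were higher, with a median of -0.01 that was -0.68 after thinning to 1500 counts per cell.

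Cytokine-induced feedback genes of the IL-2 and STAT5 pathway were higher in the members. Cish was at 181 against 60.0 CPM (3.02, 2.27 to 3.95), Socs1 at 196 against 67.5 (2.90, 2.21 to 3.76), Pim1 at 454 against 203 (2.24, 1.88 to 2.64) and Pim2, a survival kinase, at 235 against 41.8 (5.62, 4.33 to 7.20). The receptor chain Il2rb was at 116 against 161 CPM (0.72, 0.51 to 0.99). In all, 14 of 17 listed genes were higher and 10 of them by at least 1.5 times, with a median log2 ratio of 1.11, which was 0.36 over the members of the list with at least 100 counts and 0.27 within the cluster described below. Ifngr1, a chain of the interferon gamma receptor, was at 546 against 232 CPM (2.36, 2.01 to 2.74), and Tnf at 92.0 against 32.2 (2.86, 1.90 to 4.16). Il7r, the receptor of the memory cytokine IL-7, was lower at 77.2 against 127 CPM (0.61, 0.40 to 0.90).

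Other survival genes had ratios near 1 over all lung cells, with wide intervals. The median log2 ratio of the 4 measured was -0.01, and -0.79 within the cluster described below. Mcl1 was at 44.5 against 41.0 CPM (1.09, 0.60 to 1.82), Bcl2l1 had a ratio of 1.19 (0.43 to 2.66) and Bcl2a1b was at 74.2 against 82.1 (0.90, 0.58 to 1.35). Of the death-promoting relatives, Bbc3 (PUMA) was at 139 against 45.6 CPM (3.06, 2.21 to 4.15) and Bax at 309 against 238 (1.30, 1.05 to 1.58), while Pmaip1 (NOXA) had a ratio of 0.86 (0.45 to 1.49). Cdkn1a, the gene of the cell cycle inhibitor p21, was at 208 against 43.7 CPM (4.76, 3.62 to 6.17), and Aen, a p53-induced nuclease, at 62.3 against 18.0 (3.47, 2.08 to 5.51). The p53 targets as a list were mixed, with 9 of 15 higher, 6 of them at least 1.5 times, 2 at least 1.5 times lower (Mdm2, at 14.8 against 32.3 CPM, is one) and a median log2 ratio of 0.12. Cdk6, a G1 kinase, was at 267 against 52.1 CPM (5.13, 4.03 to 6.46) and was counted in 35.4% of members and 7.63% of other cells at 1500 counts per cell.

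Effector transcripts were lower in the members. Ccl5, a chemokine of effector and memory CD8+ T cells, was at 17932 CPM in the members and 43581 CPM in the others (ratio 0.41, 0.40 to 0.42). The median member held 5818 CPM of Ccl5 and the median other cell 47718, and the upper quartile of the members (15954) lay under the lower quartile of the others (30127). Gzma (granzyme A) was at 7843 against 14932 CPM (0.53, 0.51 to 0.55). Of the members' Gzma counts, 5 cells held 46.6%. The median member had 619 CPM of Gzma and the median other cell 10113, and 46 of 126 members (36.5%) had no Gzma count against 211 of 2196. Gzmb was at 671 against 1153 CPM (0.58, 0.51 to 0.66), Gzmk at 154 against 390 (0.40, 0.30 to 0.52) and Nkg7 at 3188 against 5002 (0.64, 0.60 to 0.68), whereas Prf1 (perforin) was near the limit of detection with 5 counts in the members (1.01, 0.32 to 2.42). Of 21 cytotoxic genes 18 were lower, 10 by at least 1.5 times, with a median log2 ratio of -0.57.

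S100a4, a calcium-binding protein of effector and motile T cells, was at 1330 against 2951 CPM (0.45, 0.41 to 0.49). It was not counted in 66 of 126 members but missing in only 99 of 2196 others. At 1500 counts per cell it was counted in 47.8% of members and 94.2% of others. Genes of recirculation were also lower, 15 of 16 with 11 by at least 1.5 times and a median log2 ratio of -0.77. Rasgrp2, an activator of the integrin switch Rap1, was at 101 against 315 CPM (0.32, 0.22 to 0.45), S1pr4 at 208 against 413 (0.50, 0.39 to 0.64), Klf2, which drives tissue exit, at 718 against 1132 (0.63, 0.56 to 0.72) and Ly6c2 at 736 against 1596 (0.46, 0.41 to 0.52). Reads of Ly6c2 may be shared with its close relative Ly6c1. Ccr7, a chemokine receptor for homing to lymph nodes, had 3 counts in the members, too few to compare. Residency genes were mixed, though more were higher than lower. Of 20 listed genes 14 were higher, 7 by at least 1.5 times, and 1 was at least 1.5 times lower. Their median log2 ratio was 0.26. It was 0.63 over 9 genes after thinning to 1500 counts and 0.13 with the other cells weighted to the members' depth. Itgae (CD103) was at 172 against 192 CPM (0.90, 0.68 to 1.17), Cd69 at 151 against 126 (1.20, 0.89 to 1.60) and Cxcr6 at 852 against 1080 (0.79, 0.70 to 0.89).

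Interferon-stimulated genes were lower in 14 of 22 cases, 11 by at least 1.5 times, with a median log2 ratio of -0.49. The median was -0.71 after the thinning used above. It was -0.09 with the other cells weighted to the members' depth and -0.13 within the members' cluster, both described below. The list was thus nearly level in the latter comparisons. Isg15 was at 8.91 against 59.3 CPM (0.15, 0.03 to 0.44) and Irf7 at 20.8 against 84.2 (0.25, 0.10 to 0.51), while Gbp4 was higher at 86.1 against 49.0 (1.76, 1.16 to 2.57). Isg15 had 3 counts in the members. No member lay in the small cluster of 79 lung cells led by interferon genes.

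Some of these levels were ordered by the number of rule genes. The groups come from the same counts that chose the members, so the order is a finer cut of the same comparison. Median depth fell along it, at 3042, 2650, 1889.5 and 1854 counts per cell with 0, 1, 2 and 3 or more rule genes. The levels were not brought to equal depth. Ddit3 was at 33.7 CPM in cells with 0 rule genes, 54.0 with 1, 113 with 2 and 173 with 3 or more. Slc3a2 was at 231, 287, 441 and 779 CPM in the same order, and Mthfd2 at 21.7, 43.2, 89.9 and 136. Ccl5 went the other way, at 45038, 35664, 19888 and 11743 CPM, as did S100a4 at 3008, 2638, 1500 and 791. Cdkn1a did not keep the order at the top, with 211 CPM at 2 rule genes and 198 at 3 or more. Atf4 and Gzmb did not keep it below the threshold: Atf4 was at 173 CPM with 0 rule genes and 161 with 1, and Gzmb at 1150 and 1169.

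**Figure D5:**
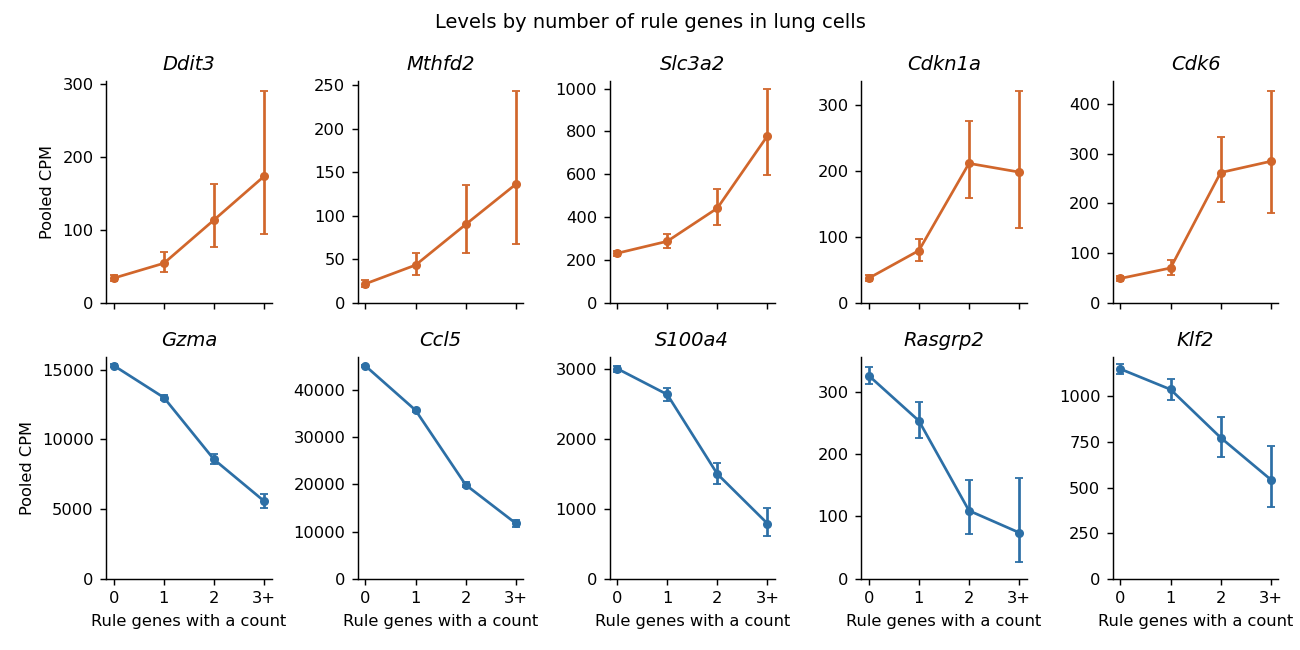
Pooled CPM of 10 genes in lung cells with 0, 1, 2 and 3 or more rule genes (1843, 353, 92 and 34 cells), with exact 95% Poisson intervals for counting error. Genes in orange are higher and genes in blue lower at 3 or more rule genes than at 0. They include Slc3a2 (231 to 779 CPM) and Ccl5 (45038 to 11743 CPM), and Cdkn1a does not rise at the last step (211 and 198 CPM).

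Lung cells were then clustered without the rule genes. Of 5 clusters, 1 with 409 cells held 105 of the 126 members (83.3%), which made up 25.7% of it (21.5 to 30.2%). The other clusters held 10 of 1176, 6 of 543, 5 of 115 and 0 of 79 cells, the cluster of 115 being led by cell cycle genes. The leading genes of the members' cluster were Hspa1a, Rcc2, Skil, Egr1, Pim2, Qpct, Cdkn1a, Cish, Hist1h1c and Socs1, and its cells had a median of 2024 counts. Since these genes defined the cluster, they are a description of it.

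The 21 members outside that cluster looked different from the 105 inside. They had a median of 5252 counts per cell against 1811, and a median ribosomal share of 27.3% against 32.6%. Their pooled Gzma was 17489 CPM against 3012 CPM inside, their Ccl5 26313 against 13735 and their S100a4 2633 against 677. Ddit3 was at 17.8 CPM outside and 183 CPM inside, and Slc3a2 at 213 and 677. The outside Ddit3 value rests on 2 counts. Of the outside Gzma counts, 5 cells held 62.6%, and the median cell had 10420 CPM of Gzma outside and 576 inside. On these genes apart from Ccl5, the outside members were nearer to the other lung cells outside the cluster, which had 16171 CPM of Gzma, 3048 of S100a4, 30.5 of Ddit3 and 226 of Slc3a2. Their Ccl5 lay below the 45165 CPM of those cells.

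Within the cluster, members and the other 304 cells differed less for some genes. Of the 30 named genes, 24 moved past their interval over all lung cells with their direction kept, and 6 did not. Hspa1a had a ratio of 2.50 within the cluster beside 8.48 over all lung cells. Pim2 was at 316 CPM in the cluster's members and 138 in its other cells, and Cdkn1a at 254 and 121. Of 2647 genes at 50 CPM or more, 11.9% were at least 1.5 times higher in the members and 12% at least 1.5 times lower. Gzma was at 3012 CPM in the members and 3604 in the other cells (ratio 0.84, 0.77 to 0.91), and Ly6c2 at 472 and 537 (0.88, 0.70 to 1.09), beside 0.53 and 0.46 over all lung cells. S100a4 (677 and 2062 CPM, 0.33, 0.28 to 0.39), Ccl5 (0.47, 0.45 to 0.49) and Rasgrp2 (0.25, 0.12 to 0.48) stayed low in the members within it. Cars (3.85, 1.81 to 8.28), Cdk6 (2.98, 2.17 to 4.08), Mthfd2 (2.14, 1.30 to 3.48) and Ddit3 (1.93, 1.28 to 2.88) stayed above equality. Each of these ratios lay under the gene's interval over all lung cells. The ATF4 list had a within-cluster median log2 ratio of 0.71 over 22 genes and the tRNA synthetases 0.34 over 23. Trdc was counted in 3 of 105 members and 13 of the other 304 cells of the cluster, so its excess among members over all lung cells was not seen there.

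Depth was handled in several ways. Thinning every cell to 1500 counts before applying the rule left 68 members among 2250 cells (3.02%), with 72 shallower lung cells left out, 13 of them members. The ratios were then farther from 1 for the effector genes, at 0.14 for Ccl5, 0.13 for S100a4 and 0.06 for Gzma, and were 4.80 for Ddit3, 5.28 for Mthfd2 and 7.73 for Cdkn1a. The shares called at that depth were 31.1% higher and 19.4% lower over all genes. Thinning to 2500 counts, which left 17 members, gave 3.71 for Ddit3, 2.68 for Mthfd2, 3.43 for Cdkn1a, 0.50 for Ccl5 and 0.47 for Gzma. Weighting the other cells to the members' depth brought most ratios nearer to 1: Ddit3 was 2.14, Mthfd2 2.28, Cdkn1a 2.88, Cars 4.59, Ccl5 0.49, S100a4 0.55 and Gzma 0.66, and 18 of the 30 named genes moved past their interval with their direction kept. The shallowest depth group holds 85 of the 126 members from which the 30 genes were named. Each of the 30 kept its direction there, which is largely built in and is no separate check on depth. In the deepest depth group, with 17 members, these ratios were closer to 1, at 1.04 for Mthfd2, 1.47 for Ddit3, 0.91 for Ccl5 and 0.85 for Gzma.

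The same rule picked fewer cells in the other tissues. It found 31 of 1224 skin cells (2.53%, 1.73 to 3.58%), 27 of 1625 lymph node cells (1.66%, 1.10 to 2.41%) and 3 of 556 liver cells (0.54%, 0.11 to 1.57%). After thinning to 1500 counts per cell the shares were 3.02% in lung (2.35 to 3.82%), 0.594% in skin (0.239 to 1.22%), 0.641% in lymph node (0.308 to 1.18%) and 0.365% in liver (0.0442 to 1.31%). The lung interval lay above the other 3. The rule genes were proposed with earlier results of these data known, so the higher share in lung may be part of that choice. It supports nothing further. Digestion and handling also differed between tissues, each tissue is 1 library, and tissue and library cannot be told apart. The skin and lymph node cells that met the rule were deeper than their neighbors, with medians of 2969 against 2514 and 3121 against 2648 counts, the reverse of lung.

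Levels in the cells meeting the rule in skin and lymph node are set beside those in lung, without a test of the difference. The rule genes that chose these cells differed by tissue. In lymph node 24 of 27 held Lta, 22 held Bcl2, and 0 held Trib3 or Atf5. In skin 21 of 31 held Lta, 18 Slc7a5, 15 Bcl2 and 2 Trib3. Among the 126 lung members 34 held Lta and 37 Trib3, so unlike cells are compared across tissues. The 30 ATF4 targets in the table and outside the rule summed to 2728 CPM in the lung members and 1428 CPM in other lung cells (ratio 1.91, 1.78 to 2.04). In skin the sums were 3235 and 3114 CPM (1.04, 0.93 to 1.16), and in lymph node 1107 and 1390 CPM (0.80, 0.64 to 0.97). Cytotoxic genes summed to 33781 against 70450 CPM in lung (0.48, 0.47 to 0.49), 25780 against 24406 in skin (1.06, 1.02 to 1.10) and 19931 against 24440 in lymph node (0.82, 0.78 to 0.86). Ccl5 was at 6942 against 8629 CPM in skin and 11984 against 15487 in lymph node, and Ddit3 at 46.2 against 52.4 and 46.1 against 55.6. Lung cells shared 1 barcode with liver, 7 with skin and 7 with lymph node, and 0 of these belonged to members.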

How the data were processed

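The authors deposited a single count table (whole numbers) of 9223 genes and 5727 cells, with the tissue in each column name and 0 columns without a tissue. Bowtie, RSEM and mm10 are named, without versions, per the submitters' processing notes. Whether counts are of unique molecular identifiers, and how cells and genes were filtered, no source used here says. Summed depth was 336877 counts for the members and 7735401 for the other lung cells. All lung cells were kept; Scrublet called 10 doublets, 0 of them members. Ratios of pooled CPM carry exact 95% intervals (conditional binomial) and shares carry Clopper-Pearson intervals. In simulated data for members over other lung cells (2196 genes), 95.6% of intervals covered the true ratio. The simulation drew pooled counts from the Poisson model that the intervals assume, so it checks the calculation only. It held no spread between cells, whereas 5 cells held 46.6% of the members' Gzma counts. Clustering used scanpy 1.11.5 (2000 variable genes, 30 components, 15 neighbors, Leiden resolution 0.6), without the rule genes and receptor genes. Named genes were the 15 per direction whose interval lay farthest from equality (50 CPM and 10% of cells on the higher side, no ribosomal, mitochondrial, receptor or predicted genes), plus any listed gene. Gene lists were matched by symbol: 59 of 571 entries had no row. Members and lists were chosen with earlier results of these data known.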

Additional observations from a re-analysis of the deposited data

How the results depend on the processing

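No paired analysis was possible because each tissue is 1 library. Low counts limit single genes: the members hold 336877 counts, so 1 count is 2.97 CPM there. The share of lung cells meeting the rule was 5.43%, and it was 3.02% after thinning to 1500 counts, 1.12% at 2500 counts, 20.6% with at least 1 rule gene and 1.46% with at least 3. The 423 genes at least 1.5 times higher became 851 and 853 with thinning to 1500 and 2500 counts, 958 and 936 in depth groups 2 and 3, 34 with at least 1 rule gene, 821 with at least 3, 747 without Bcl2 in the rule, 1078 with a minimum of 20 CPM, 56 with 200 CPM and 128 at a fold of 2. The 257 lower genes became 531 and 527 with thinning, 445, 574 and 643 in depth groups 1, 2 and 3, 21 with at least 1 rule gene, 489 with at least 3, 564 with 20 CPM, 69 with 200 CPM and 76 at a fold of 2. The cause of these shifts was not tested. Leaving ribosomal and mitochondrial genes out of the total gave 808 higher and 252 lower of 3350 genes, a split of 76.2% higher against 62.2%, and moved the median log2 ratio of all genes by 0.11. The IL-2 and STAT5 list had a median of 1.11, which was 0.36 over genes with at least 100 counts and 0.27 within the cluster. Thinning moved the cytotoxic list from -0.57 to -1.38 and the recirculation list from -0.77 to -1.74. The central memory list, at 0.86 over 9 genes, reversed to -1.42 with thinning, -0.26 over genes with at least 100 counts and -0.95 within the cluster, and the cause was not tested. The share of skin cells meeting the rule was 2.53% and 0.594% with thinning, and that of lymph node 1.66% and 0.641%. Of 595 values of the 30 named genes under the alternatives, 2 reversed: Hist1h1c at 0.68 in depth group 4 and Irf7 at 1.23 in depth group 3. Another 218 moved past their interval with the same direction and 375 did not. The within-cluster values, those without the top cell on each side and resolution 1.0 (82.5% of members in 1 cluster, against 83.3%) were chosen after seeing the data.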

Other observations

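Some gene groups not described above were level or mixed in the members. Immediate early genes were higher in 10 of 20 cases, with a median log2 ratio of 0.03; Egr1 was at 65.3 against 22.0 CPM (2.97, 1.81 to 4.65) and Jun at 80.1 against 32.6 (2.46, 1.59 to 3.67). NF-kB genes had a median of -0.04 over 17 genes, with the inhibitor Nfkbia at 445 against 526 CPM. Glycolysis and hypoxia genes stood at 0.09 over 19 genes, and sterol synthesis genes at 0.24 over 18, or 0.95 after thinning to 1500 counts. Inhibitory receptors were lower in 7 of 7 measured cases (median -0.48), but counts were few: Lag3 and Pdcd1 had 6 counts each in the members, and within the cluster the median over 3 genes was 0.03.

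The T cell genes themselves were not uniform. Cd5, a brake on receptor signaling, was at 11.9 against 44.6 CPM (0.27, 0.07 to 0.69) and Cd2, an adhesion receptor, at 588 against 913 (0.64, 0.56 to 0.74). The chemokine gene Xcl1 was at 35.6 against 7.89 CPM (4.52, 2.21 to 8.47) and Isg20, an exonuclease also induced by interferon, at 62.3 against 19.5 (3.19, 1.92 to 5.06), opposite to Isg15. Tmsb4x, an actin-binding peptide gene, was at 15510 against 24000 CPM.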
